A study of Mus musculus with 8 samples.

Results

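The genes described here are the 3 mouse TGF-beta ligands (Tgfb1, Tgfb2, Tgfb3), their 3 receptors (Tgfbr1, Tgfbr2, Tgfbr3) and 4 proteins that hold the latent ligand (Lrrc32, Nrros, Ltbp1, Ltbp3), in the lungs of BHLKO and Alb-Cre mice. They were taken by gene symbol, 10 of the 15960 genes in the count table, and all 10 passed the filter on low counts. As a set they were chosen by pathway membership together with the measured BHLKO against Alb-Cre difference in these same counts, that of Lrrc32 above all, so the members' differences between the groups are given as a description and carry no p-value. The 4 BHLKO libraries came from Alb-Cre+ mice with both alleles of the genes for HIF1-alpha and BMAL1 floxed (Hif1_alpha fl/fl and Bmal1fl/fl), and the 4 Alb-Cre libraries from mice with Alb-Cre alone. Alb-Cre is a Cre recombinase under the albumin promoter, which is active in hepatocytes, so both groups carry the transgene and the lung is not the organ it is directed to. All mice were C57BL/6, aged 3 to 5 months, kept for 2 weeks under 12 h of light and 12 h of dark with food ad libitum, and sampled at circadian time 16 on a day when the lights were left off. Whole-lung total RNA was sequenced, and the labels do not say whether each library is a separate animal, so the spread between libraries may be partly technical.

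TGF-beta is secreted in a latent form, wrapped in its own propeptide. Latent TGF-beta binding proteins such as LTBP1 and LTBP3 anchor this complex in the extracellular matrix. LRRC32, also called GARP, holds it on the surface of regulatory T cells, platelets and endothelial cells, and NRROS, also called LRRC33, holds it on myeloid cells. Integrins, thrombospondin and proteases free the ligand, which binds TGFBR2 and TGFBR1 (with TGFBR3 as a co-receptor) and signals through SMAD proteins. In the lung the pathway is known for its part in matrix deposition, vascular remodelling and immune restraint.

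Counts assigned to genes ranged between 6838427 and 15430372 per library. Of 13517 genes tested with edgeR's quasi-likelihood test, 306 (2.26%) passed a Benjamini-Hochberg adjusted p of 0.05, 140 of them higher in BHLKO (1.04%) and 166 lower (1.23%). One library stood apart from its group: on the first principal component of log2 counts per 1000000 counts (CPM), with 27.2% of the variance, the BHLKO libraries lay between 15.3 and 32.0, Alb-Cre replicate 5 at -8.51 and the other Alb-Cre libraries between -35.4 and -28.0. Where a call or an overlap of a member turned on it, this is stated beside the value. For the other named genes only some such cases are stated. Neither targeted gene was called in the lung. Arntl, which encodes BMAL1, averaged 7.60 ± 2.503 CPM in BHLKO and 6.54 ± 1.37 CPM in Alb-Cre, and Hif1a averaged 13.5 ± 1.38 CPM in BHLKO and 12.8 ± 1.95 CPM in Alb-Cre (SD, n = 4 each). Whole-gene counts in this tissue do not check a liver deletion. Alveolar and airway epithelial markers, which define the labelled tissue, summed to 84963 to 91736 CPM in BHLKO and 87275 to 97912 CPM in Alb-Cre. Of the 12, Nkx2-1, a transcription factor of lung epithelium, fell (log2 fold change -1.71 ± 0.10), and Rtkn2 (2.62 ± 0.28) and Sftpd (0.43 ± 0.09) rose, with no overlap between the groups.

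Of the 10 members, 2 (20.0%) passed the call rule, against 2.26% of all tested genes. They were Lrrc32, higher in BHLKO lung, and Nrros, lower in BHLKO lung. Both encode leucine-rich repeat proteins that tether latent TGF-beta to a cell surface, and they moved in opposite directions. The other 8 members, all 3 ligands, all 3 receptors and both LTBPs, did not pass it. The 8 BHLKO and Alb-Cre libraries did not overlap for 3 members (Lrrc32, Nrros and Tgfb2), against 9.62% of all tested genes. The log2 fold change of BHLKO over Alb-Cre was above 0 for 6 members and below 0 for 4, with a median of 0.141, against -0.002 for all tested genes. Since the set was chosen with these results known, nothing is read from its shares beside those of all genes.

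Lrrc32 and Nrros are related in sequence, and their coding sequences matched at 55.2% of aligned bases. The most alike stretch of 90 bases is shown because it lies in the pair of genes that carried the difference between the groups. It covers coding bases 565 to 654 of 1989 in Lrrc32 and 670 to 759 of 2163 in Nrros (GENCODE M21), with 63 of 90 bases identical (70.0%), printed in capitals.
Lrrc32: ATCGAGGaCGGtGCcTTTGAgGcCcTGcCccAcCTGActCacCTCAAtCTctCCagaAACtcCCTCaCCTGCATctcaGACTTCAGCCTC
Nrros: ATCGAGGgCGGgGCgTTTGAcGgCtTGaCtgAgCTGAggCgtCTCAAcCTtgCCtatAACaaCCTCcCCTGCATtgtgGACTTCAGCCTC
The longest run of bases shared without a mismatch by any transcripts of the 2 genes was 12. Each shared a longer run with another member, 36 bases for Lrrc32 with Tgfb2 and 44 bases for Nrros with Tgfbr2. The exons of Lrrc32 and of Nrros did not overlap those of another annotated gene.

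Lrrc32 lies at chr7:98489283-98502181 on the plus strand (mm10). It had 185, 195, 190.3 and 223 CPM in the BHLKO libraries, against 134, 113, 102 and 175 CPM in the Alb-Cre libraries. Every BHLKO library was above every Alb-Cre library, and the closest pair was 185 CPM in BHLKO replicate 2 and 175 CPM in Alb-Cre replicate 5. The means were 198 ± 16.7 CPM in BHLKO and 131 ± 32.5 CPM in Alb-Cre (SD, n = 4 each), a log2 fold change of 0.60 ± 0.14 (SE), or 1.51-fold. Without Alb-Cre replicate 5 the log2 fold change was 0.77 and the gene was called. It was not called when any 1 of the other 7 libraries was left out, with log2 fold changes between 0.49 and 0.63.

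Nrros lies at chr16:32142785-32165594 on the minus strand (mm10). It had 57.1, 58.2, 57.3 and 50.4 CPM in the BHLKO libraries, against 79.1, 99.6, 77.5 and 70.3 CPM in the Alb-Cre libraries. All 4 BHLKO libraries lay below all 4 Alb-Cre libraries, and the BHLKO values were the more tightly grouped. Mean levels were 55.8 ± 3.62 CPM in BHLKO and 81.6 ± 12.6 CPM in Alb-Cre (SD, n = 4 each), a log2 fold change of -0.55 ± 0.11 (SE), or 1.46-fold lower. The gene was called in 7 of 8 fits that left out 1 library, at -0.61 without Alb-Cre replicate 5, and it missed the threshold without BHLKO replicate 5, at -0.50.

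**Figure D1:**
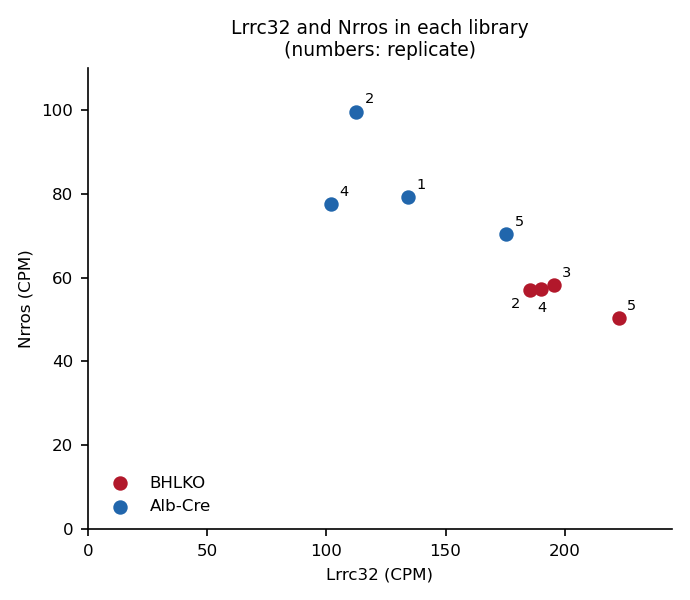
Level of Lrrc32 (horizontal axis) and of Nrros (vertical axis), both in CPM, with 1 point per library, coloured by group and numbered by replicate. The 4 BHLKO libraries sit at higher Lrrc32 and lower Nrros than the 4 Alb-Cre libraries, and Alb-Cre replicate 5 is the Alb-Cre library nearest to them.

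Expressed per kilobase of exon, so that levels of the 2 genes can be set side by side, Lrrc32 averaged 42.3 CPM per kilobase in BHLKO and 28.0 in Alb-Cre, and Nrros 13.3 in BHLKO and 19.5 in Alb-Cre. The ratio of the Lrrc32 level to the Nrros level was 2.89, 2.995, 2.956 and 3.939 in the BHLKO libraries, against 1.512, 1.007, 1.172 and 2.222 in the Alb-Cre libraries. It did not overlap between the groups, and averaged 3.195 ± 0.498 in BHLKO and 1.479 ± 0.539 in Alb-Cre (SD, n = 4 each). Within each group the library numbered 5 had both the highest Lrrc32 level and the lowest Nrros level. The summed level of the 2 genes overlapped between the groups, at 53.2 to 59.6 CPM per kilobase in BHLKO and 40.3 to 54.3 in Alb-Cre. The overlap came from Alb-Cre replicate 5 alone, since the other 3 Alb-Cre libraries, at 40.3 to 47.9, were below every BHLKO library.

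In whole lung, fewer cells of a type and less RNA per cell cannot be told apart, so the levels of cell type markers stand here beside the 2 genes. Among cells in which LRRC32 is known, 2 of 8 platelet and megakaryocyte markers rose (Treml1 and Gp5) and none fell, and their summed level was 372 to 767 CPM in BHLKO and 276 to 335 CPM in Alb-Cre. With 1 library left out, between 1 and 4 of these markers were called, all higher in BHLKO, and Treml1 was called in all 8 fits. None of 10 endothelial markers was called by edgeR, DESeq2 or limma-voom, and 2 had an unadjusted p under 0.05 in edgeR, although 2 (Egfl7 and Cldn5) were called higher without BHLKO replicate 3. Their summed levels were 3876 to 4922 CPM in BHLKO and 3695 to 4354 CPM in Alb-Cre. Of 9 regulatory T cell markers 4 were tested, and the defining genes Foxp3, Il2ra, Ctla4 and Icos fell under the count filter. Foxp3 had 0 counts in the 4 BHLKO libraries, where 3 counts stand for 0.245 to 0.309 CPM, and 0.149 to 0.944 CPM in Alb-Cre, and Ctla4 had 0 to 0.255 CPM in BHLKO and 0.265 to 1.29 CPM in Alb-Cre. Neither overlapped between the groups, and both rest on few counts. One of the 4 tested markers (Tnfrsf18) fell, and it was called in 4 of the 8 fits that left out 1 library. The summed level of the 8 markers in the table, tested or not, was 22.2 to 24.7 CPM in BHLKO and 22.3 to 44.3 CPM in Alb-Cre, where replicate 5 was the lowest. Their part in the Lrrc32 difference was not tested.

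For Nrros, 1 of 12 macrophage and monocyte markers fell (Cx3cr1, a chemokine receptor of monocytes), none rose, and 10 of the 12 had log2 fold changes below 0, with a median of -0.214. Their summed level was 916 to 1004 CPM in BHLKO and 970 to 1242 CPM in Alb-Cre, so the groups overlapped. Of the lymphocyte markers, 4 of 10 for T cells (Cd3d, Cd4, Cd6 and Cd8a) and 2 of 8 for B cells (Blk and Cd22) fell and none rose, with summed levels of 37.9 to 52.0 CPM in BHLKO and 66.0 to 131 CPM in Alb-Cre for T cells, and 39.8 to 65.4 CPM in BHLKO and 88.3 to 328 CPM in Alb-Cre for B cells. All 10 T cell and all 8 B cell markers had log2 fold changes below 0 and an unadjusted p under 0.05 in edgeR. DESeq2 called more markers of both lists than edgeR did, all lower in BHLKO. Alb-Cre replicate 5 had the lowest T and B cell sums of its group, and without it 8 T cell and 7 B cell markers were called, all lower in BHLKO. These counts varied widely with the libraries kept: 1 T cell and no B cell marker was called without Alb-Cre replicate 1, Alb-Cre replicate 4 or BHLKO replicate 4. In the matrix-producing compartment, 3 of 10 fibroblast markers rose (Pdgfra, Npnt and Dpt) and none fell, with summed levels of 2812 to 3075 CPM in BHLKO and 2128 to 2567 CPM in Alb-Cre. Of these 3, Dpt was called in all 8 fits that left out 1 library, and it was the 1 call left in 4 of them. No listed marker was at 0 in all libraries, and the part of these cells in the members' differences was not tested.

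**Figure D2:**
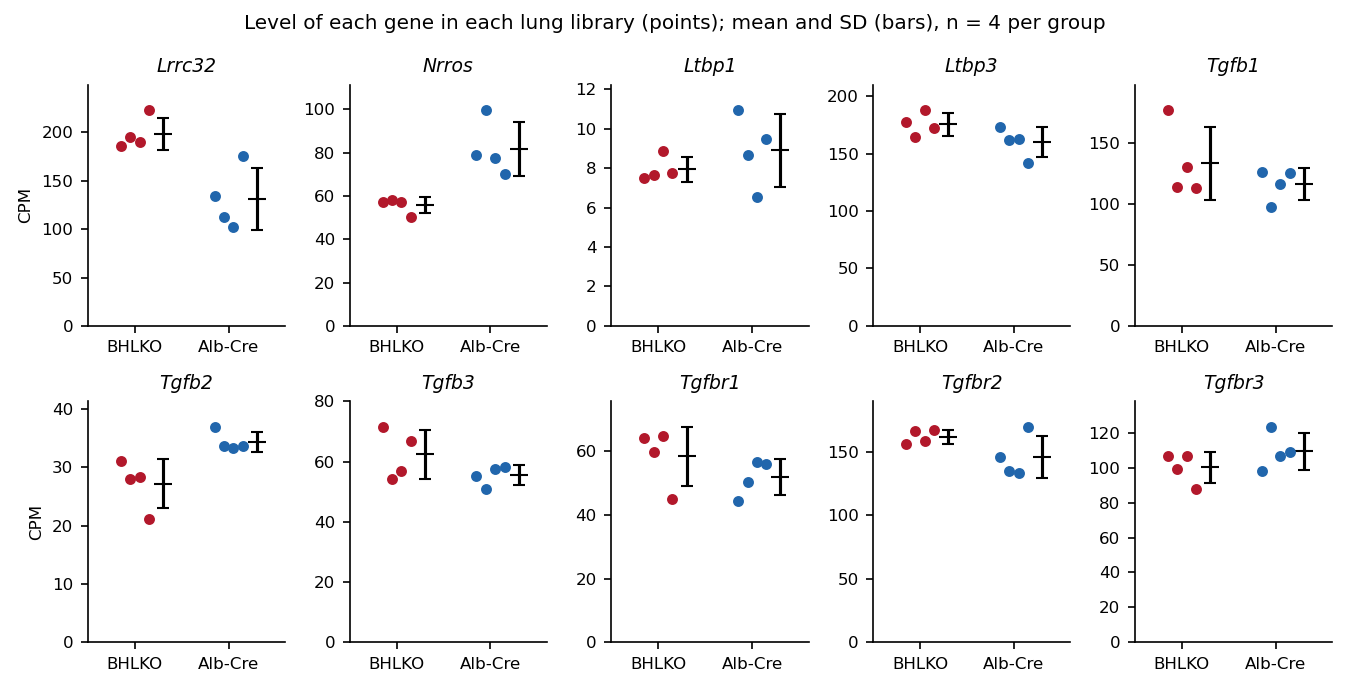
CPM of the 10 members in each library, 1 panel per gene, with BHLKO left of Alb-Cre and bars for the mean and SD of 4 libraries. Lrrc32 is higher and Nrros and Tgfb2 are lower in all BHLKO libraries than in all Alb-Cre libraries, and the groups overlap for the other 7 genes.

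Among the ligands, Tgfb2, the isoform known for its role in heart and epithelial development, had 31.1, 28.0, 28.3 and 21.2 CPM in BHLKO, against 36.9, 33.5, 33.2 and 33.6 CPM in Alb-Cre. All BHLKO libraries were below all Alb-Cre libraries, with means of 27.1 ± 4.20 CPM in BHLKO and 34.3 ± 1.72 CPM in Alb-Cre (SD, n = 4 each). The log2 fold change was -0.34 ± 0.13 (SE), 1.27-fold lower, which did not pass the call rule over all genes. Tgfb1, the isoform known from immune cells and platelets, had 177, 113, 129.8 and 113 CPM in BHLKO, against 126, 97.7, 116 and 126 CPM in Alb-Cre. The groups overlapped, and BHLKO replicate 2 was the highest of the 8 libraries, with a log2 fold change of 0.19 ± 0.14. Tgfb3, the isoform known for palate closure and for mesenchymal expression, had 71.6, 54.3, 57.0 and 66.8 CPM in BHLKO, against 55.2, 50.9, 57.5 and 58.2 CPM in Alb-Cre. These values overlapped too, with a log2 fold change of 0.17 ± 0.11.

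Per kilobase of exon, the 3 ligands summed to 49.6 ± 8.16 CPM per kilobase in BHLKO and 45.4 ± 3.58 in Alb-Cre (SD, n = 4 each), with overlapping ranges. Tgfb1 made up 53.0 ± 3.38% of that sum in BHLKO and 50.7 ± 1.89% in Alb-Cre, and Tgfb3 37.5 ± 3.87% in BHLKO and 36.2 ± 1.42% in Alb-Cre. The Tgfb2 share was 8.71, 11.1, 10.3 and 7.98% in the BHLKO libraries, against 13.4, 14.4, 12.5 and 12.1% in the Alb-Cre libraries. It was the 1 ligand share whose groups did not overlap, at 9.53 ± 1.44% in BHLKO and 13.1 ± 1.01% in Alb-Cre.

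Among the receptors, Tgfbr2, which binds the ligand first, had 156, 166, 159 and 167 CPM in BHLKO, against 146, 135, 134 and 169 CPM in Alb-Cre. Alb-Cre replicate 5 was the highest of all 8 libraries and the other 3 Alb-Cre libraries were below every BHLKO library, so the groups overlapped through that library alone. The log2 fold change was 0.15 ± 0.09, and 0.23 without that library. Tgfbr1, the kinase that phosphorylates SMAD2 and SMAD3, had 64.0, 59.8, 64.9 and 45.0 CPM in BHLKO, against 44.3, 50.4, 56.7 and 56.1 CPM in Alb-Cre. Here BHLKO replicate 5 lay among the Alb-Cre values, and the log2 fold change was 0.17 ± 0.13. The co-receptor Tgfbr3 (betaglycan), which presents TGF-beta2 in particular to TGFBR2, had 107, 99.4, 107 and 87.5 CPM in BHLKO, against 98.1, 123, 107 and 109 CPM in Alb-Cre. Its groups overlapped, at -0.12 ± 0.10. The ratio of the Tgfbr2 level to the Tgfbr1 level per kilobase was 2.27 ± 0.477 in BHLKO and 2.26 ± 0.324 in Alb-Cre (SD, n = 4 each).

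The 2 matrix-bound latency proteins overlapped between the groups. Ltbp3 had 178, 164, 188 and 172 CPM in BHLKO, against 173, 162, 163 and 142 CPM in Alb-Cre, a log2 fold change of 0.13 ± 0.09. Ltbp1 was the least abundant member, with 7.50, 7.66, 8.85 and 7.74 CPM in BHLKO, against 10.9, 8.67, 6.52 and 9.47 CPM in Alb-Cre. Its log2 fold change was -0.17 ± 0.21, the widest error of the 10. Some exons of Tgfb2, Tgfb3 and Tgfbr3 overlap predicted genes absent from the count table. Whether counting used strand is not given in the sources used here, so a few reads of these 3 genes may belong to a neighbour.

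**Figure D3:**
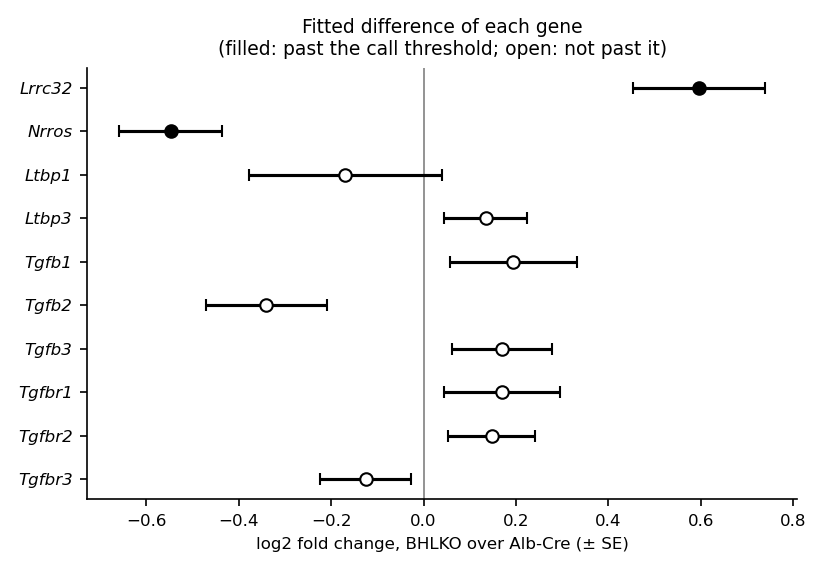
Log2 fold change of BHLKO over Alb-Cre for the 10 members, with bars of 1 SE. Lrrc32 at 0.60 and Nrros at -0.55 are the 2 that passed the call rule, and the other 8 lie between -0.34 and 0.19.

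Levels of the 10 genes were compared per kilobase of exon over all 8 libraries. Lrrc32 was highest at 35.1 ± 9.22 CPM per kilobase, followed by Tgfb1 (24.8 ± 4.61), Tgfbr2 (18.8 ± 1.74), Ltbp3 (18.5 ± 1.49), Tgfb3 (17.4 ± 2.02), Nrros (16.4 ± 3.89) and Tgfbr3 (16.0 ± 1.57; SD, n = 8). Within these 7, neighbours in the order overlapped in range. Within libraries, Tgfb1 was above Tgfbr2 in 8 of 8 and Lrrc32 above Tgfb1 in 7 of 8, and the other neighbours from Tgfbr2 to Tgfbr3 changed places between libraries. Lrrc32 (21.7 to 47.5 CPM per kilobase) did not overlap with Tgfbr2 (16.3 to 20.7). The pooled order hides a difference for Nrros, which ranked 7 of 10 in BHLKO and 3 of 10 in Alb-Cre. The remaining 3 stood below them and apart from each other in 8 of 8 libraries, with Tgfbr1 at 8.44 ± 1.21, Tgfb2 at 5.31 ± 0.839 and Ltbp1 at 0.787 ± 0.128 CPM per kilobase.

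**Figure D4:**
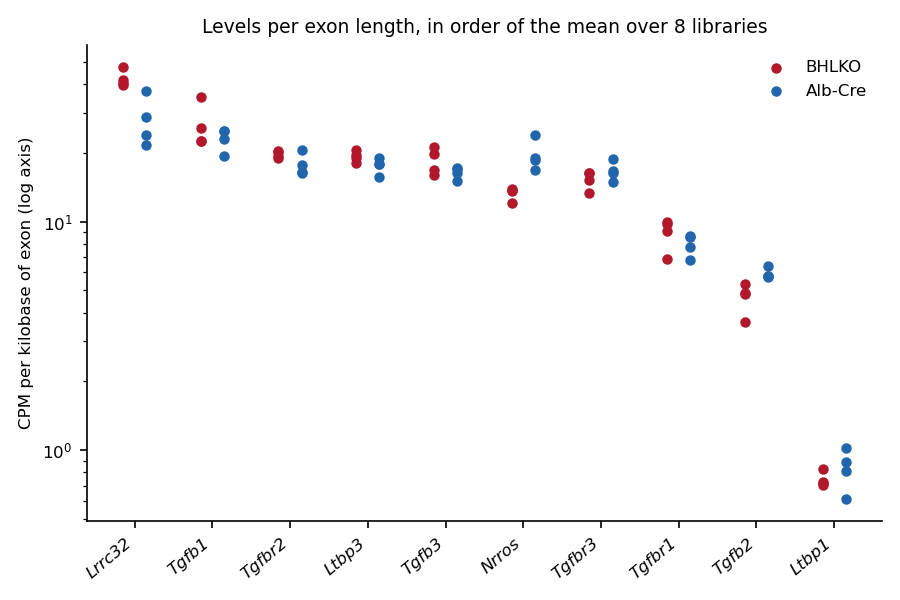
Level of each member in CPM per kilobase of exon, on a log axis, for the 4 BHLKO and 4 Alb-Cre libraries. Lrrc32 has the highest mean and Ltbp1 the lowest, and Tgfbr1, Tgfb2 and Ltbp1 do not overlap with the genes next to them in the order.

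The members are spread over 9 chromosomes, and 3 of them share a chromosome with a floxed gene. Lrrc32 lies 14.71 Mb and Tgfb1 87.5 Mb from Arntl on chromosome 7, and Tgfb3 lies 12.11 Mb from Hif1a on chromosome 12. The floxed alleles were in the BHLKO group alone, so an allele carried along with a floxed locus and the liver deletion cannot be told apart for these genes. None of the 5 nearest tested genes on either side of Lrrc32 was called (Pak1, Myo7a, Capn5, Acer3, Tsku, Emsy, Gm15506, Thap12, Wnt11 and Uvrag). Gm15506, 180.2 kb away and low in level, averaged 1.99 ± 0.459 CPM in BHLKO and 0.549 ± 0.334 CPM in Alb-Cre (SD). Its groups did not overlap, with a log2 fold change of 1.80 ± 0.54 (SE, edgeR adjusted p = 0.100), and DESeq2 called it. Within 5 Mb of Lrrc32, 2 of 79 tested genes (2.53%) were called, Ints4 and Trim21. Within 5 Mb of Nrros 3 of 67 (4.48%) were called, Gp5, Rpl35a and Hcls1. The share called over all tested genes was 2.26%. None of the 10 nearest genes around Nrros (Ncbp2, Senp5, Pak2, Pigx, Cep19, Fbxo45, Wdr53, Rnf168, Ubxn7 and Tctex1d2) was called.

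RefSeq promoter windows of GRCm38.p6, from 250 bases before to 50 after a start, were at hand for 7 of the 10 members, in 9 windows. Lrrc32, Tgfb3 and Tgfbr3 had none. The windows were searched on both strands for 3 motifs: CACGTG (the E-box bound by CLOCK and BMAL1), ACGTG (the core of the hypoxia response element, which CACGTG contains) and CAGAC (a SMAD-binding core). CACGTG was found in 1 of the 9 windows, that of Tgfb2, 51 bases before the start, and 7.15% of 32851 mouse promoter windows hold it. ACGTG was found in 3 windows, of Tgfb2, Ltbp1 and Ltbp3, against 19.62% of all windows, and CAGAC in 7 of the 9, against 49.59%. The 250 bases before the start are printed for Tgfb2, whose window holds the E-box letters (chr1:186705990-186706239, minus strand), and for Nrros, the member that fell (chr16:32165595-32165844, minus strand), with CACGTG and CAGAC in capitals.
Tgfb2: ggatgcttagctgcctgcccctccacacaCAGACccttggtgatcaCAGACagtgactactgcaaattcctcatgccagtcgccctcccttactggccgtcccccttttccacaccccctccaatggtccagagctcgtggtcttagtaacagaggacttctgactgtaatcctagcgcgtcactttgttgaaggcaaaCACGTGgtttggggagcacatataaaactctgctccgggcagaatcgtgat
Nrros: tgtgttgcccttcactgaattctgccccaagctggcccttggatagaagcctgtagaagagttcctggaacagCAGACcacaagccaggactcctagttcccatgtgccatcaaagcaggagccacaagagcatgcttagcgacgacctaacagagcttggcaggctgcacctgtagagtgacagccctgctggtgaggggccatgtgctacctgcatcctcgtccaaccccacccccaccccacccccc
The Nrros window held CAGAC 177 bases before the start and neither of the other motifs. Such matches describe letters in a window and not the binding of a factor.

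By the root mean square difference of centred log2 CPM over the 8 libraries, the genes whose profile was most like that of Lrrc32 were Timm23 (0.067), Fgd5 (0.125), Ube2b (0.125), Cyp2b10 (0.126) and Mmp19 (0.127), among 10462 candidates. Fgd5, an endothelial guanine nucleotide exchange factor, had 92.3, 97.0, 92.0 and 111 CPM in BHLKO, against 66.4, 67.1, 62.0 and 86.4 CPM in Alb-Cre. In both groups replicate 5 was the highest library, as for Lrrc32. Mmp19, a matrix metalloproteinase, averaged 24.6 ± 2.46 CPM in BHLKO and 15.7 ± 2.72 CPM in Alb-Cre (SD, n = 4 each). Fgd5 and Mmp19 were called, but with 1 library left out they were called only without Alb-Cre replicate 5. Ube2b and Cyp2b10 were not called in edgeR with all libraries. Of the fits that left out 1 library, only that without Alb-Cre replicate 5 called them, and their groups overlapped through that library alone. All 5 were picked for their likeness to Lrrc32, so their difference between the groups is given as a description.

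Beyond the members, 86 other tested genes of the pathway in 5 lists gave 9 calls (10.5%), all 9 higher in BHLKO. Over all tested genes 2.26% were called, and 1.04% were called higher in BHLKO. Of the 86, 67 had log2 fold changes above 0, with a median of 0.207, against -0.002 for all tested genes. The lists hold textbook partners and targets of TGF-beta and were written with earlier results of these data known, so their counts are a description. Itgb8, Bambi, Gdf10, Usp9x and Inhba were among the listed genes absent from the count table, and Fbn2, Plau and Acvr1c fell under the count filter. Leaving out 1 library at a time gave between 5 and 16 calls, with 5 without Alb-Cre replicate 1 or BHLKO replicate 2 and 16 without Alb-Cre replicate 5, where 2 of the 16 were lower in BHLKO (Fmod and Pdgfb). Itgb3, Mmp2, Skil, Klf10 and Gdf15 were called in all 8 of those fits.

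Among 16 activators and matrix partners of latent TGF-beta, 3 rose and none fell, with 15 log2 fold changes above 0 and a median of 0.158. Itgb3, the beta subunit of the alpha-v beta-3 and platelet integrins, had 179.6, 111, 118 and 134 CPM in BHLKO, against 79.7, 83.4, 75.5 and 78.4 CPM in Alb-Cre. All BHLKO libraries were above all Alb-Cre libraries (log2 fold change 0.78 ± 0.13, edgeR adjusted p = 0.00472). Mmp2, a gelatinase that can cleave latent TGF-beta complexes, had 150.2, 142, 132 and 146 CPM in BHLKO, against 99.1, 77.6, 104 and 94.9 CPM in Alb-Cre (0.60 ± 0.10, edgeR adjusted p = 0.00437). Its groups did not overlap either. Thbs1, which encodes thrombospondin 1, had 112, 141, 104 and 126 CPM in BHLKO, against 64.9, 47.6, 50.025 and 91.8 CPM in Alb-Cre, with replicate 5 the highest of Alb-Cre (0.92 ± 0.20, edgeR adjusted p = 0.0494). Of the 8 fits that left out 1 library, it was called only in the fit without Alb-Cre replicate 5. Itgb3 and Thbs1 are also expressed by platelets, whose markers are given above, and the part of those cells was not tested. Plat, which encodes tissue plasminogen activator, had a log2 fold change of 0.84 ± 0.24 and was not called (edgeR adjusted p = 0.133), but it was called without Alb-Cre replicate 5, at 1.14.

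None of 13 co-receptors, decoys and binders was called by edgeR, where 4 had an unadjusted p under 0.05, or by limma-voom. DESeq2 called 1 of them (Eng), and 2 were called without Alb-Cre replicate 5 (Eng and Fmod), 1 without Alb-Cre replicate 2 (Htra3) and 1 without BHLKO replicate 3 (Eng). The median was 0.112. The smallest p-values among them belonged to Eng (endoglin, the endothelial co-receptor), at 0.53 ± 0.15 (edgeR adjusted p = 0.105), to Fmod (fibromodulin, a matrix proteoglycan), at -0.68 ± 0.24 (0.189), to Nrp2, at 0.24 ± 0.10 (0.225), and to Acvrl1 (ALK1, the endothelial type I receptor), at 0.28 ± 0.12 (0.256).

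Of 20 SMADs and their regulators, 2 rose, and both encode inhibitors of signalling by this family. Skil, which encodes the SMAD co-repressor SnoN, had 26.8, 24.7, 23.7 and 27.3 CPM in BHLKO, against 15.8, 12.9, 14.6 and 17.4 CPM in Alb-Cre (log2 fold change 0.75 ± 0.14, edgeR adjusted p = 0.00999). Smad6, an inhibitory SMAD that acts mainly on the BMP branch, had 619.5, 442, 505 and 593 CPM in BHLKO, against 263, 336, 249 and 396 CPM in Alb-Cre (0.80 ± 0.15, edgeR adjusted p = 0.0163). Neither gene overlapped between the groups. Smurf2, a ubiquitin ligase for the receptors, was at 0.36 ± 0.12 and Pmepa1, a TGF-beta-induced inhibitor, at 0.32 ± 0.14, and neither was called (edgeR adjusted p = 0.127 and 0.270). Without Alb-Cre replicate 5, Smurf2 was called at 0.49. Smad6 was not called without Alb-Cre replicate 1, BHLKO replicate 2 or BHLKO replicate 5.

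Of 27 genes listed here as targets induced by TGF-beta, 3 rose and none fell, 22 had log2 fold changes above 0, and the median was 0.287. Klf10, first described as a TGF-beta-inducible early gene, had 94.8, 82.3, 86.0 and 69.2 CPM in BHLKO, against 59.3, 53.9, 42.1 and 41.5 CPM in Alb-Cre, with no overlap (0.76 ± 0.13, edgeR adjusted p = 0.00564). Timp1, an inhibitor of metalloproteinases, had 21.5, 16.9, 21.1 and 18.3 CPM in BHLKO, against 11.5, 9.68, 12.2 and 12.6 CPM in Alb-Cre (0.75 ± 0.16, edgeR adjusted p = 0.0184). Lox, which crosslinks collagen, had 39.9, 23.7, 37.5 and 37.8 CPM in BHLKO, against 19.3, 12.6, 20.4 and 24.2 CPM in Alb-Cre (0.85 ± 0.20, edgeR adjusted p = 0.0354). Its groups overlapped through BHLKO replicate 3. Timp1 was called in 3 and Lox in 2 of the 8 fits that left out 1 library. Pdgfb, a growth factor for pericytes, stood just outside the threshold on the other side, at -0.45 ± 0.11 (edgeR adjusted p = 0.0518), and its groups did not overlap. It was called lower in BHLKO under 4 of the 9 alternatives that kept all libraries, DESeq2 among them. It was also called without Alb-Cre replicate 5, at -0.54. Calls in this list numbered 6 without Alb-Cre replicate 5. Klf10 was the 1 call left when replicate 1, 2 or 4 of Alb-Cre, or replicate 2 or 4 of BHLKO, was left out. Timp1 and Lox are products of fibroblasts, whose markers are given above, and the part of those cells was not tested.

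The last list holds activin and inhibin subunits, activin receptors and binders, and related ligands, with a median of 0.207. The 1 called gene of its 10 was Gdf15, a stress-induced ligand of the wider family known to signal through GFRAL and RET and not through activin receptors. The 9 others were not called, so no activin subunit, receptor or binder among the tested genes passed the test. The activin subunit gene Inhba was absent from the count table, as were Gdf11 and Mstn, and the receptor gene Acvr1c fell under the count filter. Nothing is known of these from the data used here. Gdf15 had 10.8, 10.2, 17.8 and 15.4 CPM in BHLKO, against 6.25, 6.65, 4.72 and 6.03 CPM in Alb-Cre. The groups were well apart, with a log2 fold change of 1.20 ± 0.22 (edgeR adjusted p = 0.00963). Inhbb, a subunit of activin B, was at 0.48 ± 0.17 (0.174), and the activin binders Fstl1 and Fstl3 were at 0.25 ± 0.10 (0.193) and 0.18 ± 0.09 (edgeR adjusted p = 0.339 for Fstl3), none of them called.

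**Figure D5:**
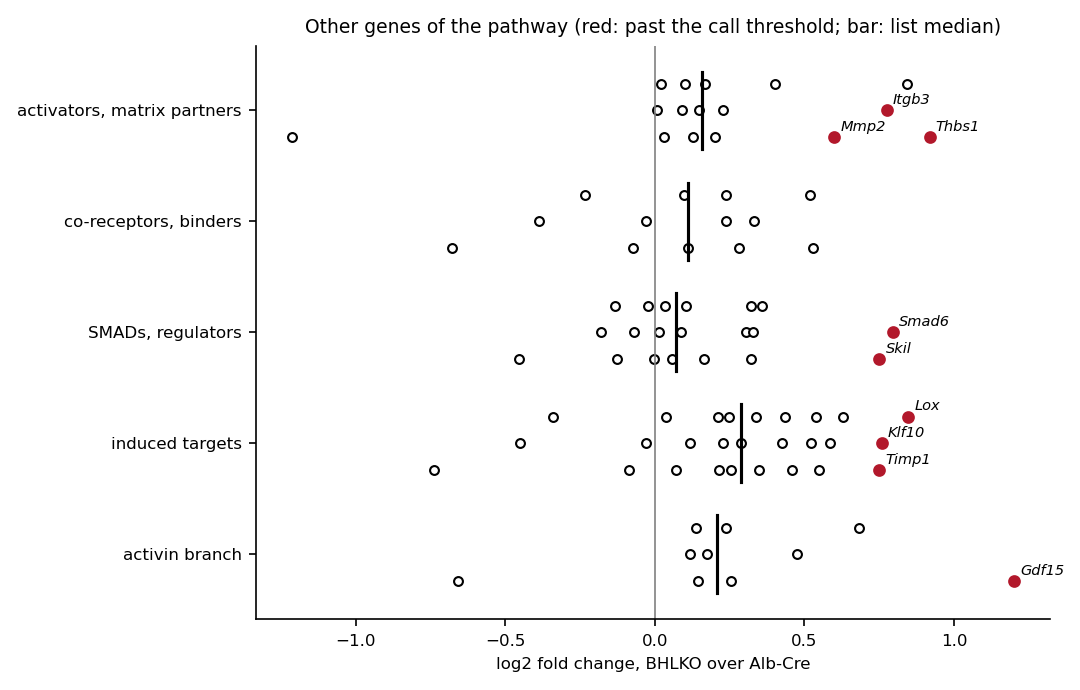
Log2 fold change of BHLKO over Alb-Cre for every tested gene of the 5 pathway lists, 1 row per list, with called genes filled and the list's median marked. All 9 called genes lie above 0, led by Gdf15 at 1.20, and the list medians lie between 0.072 and 0.287.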

How the data were processed

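Whole-lung RNA was sequenced in 4 BHLKO and 4 Alb-Cre libraries, and the groups were taken from the genotype labels. The authors deposited raw read counts per gene and, beside them, a normalized signal that equals those deposited counts divided by 1 constant per library, between 0.616 and 1.34, as a check of the values showed. The signal was used only for that check. The submitters' processing notes name cutadapt, STAR 2.5.2b, HTSeq, DESeq2 and mm10, without their roles. The sources used here give neither the strand setting nor the annotation used for counting.

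Counts were fitted in edgeR 4.0.16 (R 4.3.3) with TMM scaling, edgeR's filter on low counts by group and the robust quasi-likelihood F test. The filter kept 13517 of 15960 genes and 99.9% of counts. Adjusted p-values (Benjamini-Hochberg) run over all tested genes, and a gene was called under 0.05. Log2 fold changes are BHLKO over Alb-Cre, their SE is derived from the F statistic, and CPM use the TMM-scaled library size. The fit was tested on simulated data, where it called 35.5% of 1.5-fold, 71.2% of 2-fold and 87.7% of 4-fold changes. Of its calls there, 3.68% were false. A gene that was not called may thus still differ between the groups. Each member had between 60 and 2649 counts in a library. Alternatives were other scalings and filters, DESeq2 1.42.0, limma-voom (limma 3.58.1), no robust estimation, a replicate block and leaving out each library.

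Positions and exon lengths come from GENCODE M21 (mm10), which placed 15642 of 15960 symbols, and promoters from RefSeq. Named genes are the members, called genes of 5 pathway lists (filled up to 4 per list by smallest p), the 5 profiles most like Lrrc32 with a mean of at least 5 CPM, the 5 nearest genes on each side of a called member, and the targeted genes. Called genes within 5 Mb and called cell type markers were named after their values were seen. The members and lists were chosen with earlier results of these data known. Protein sequences were not used here.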

Additional observations from a re-analysis of the deposited data

Results flagged for a closer look

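In 9 of 114 groups of 4 libraries, over 57 named genes, 1 library lay far from the other 3 by Dixon's criterion (gap over range above 0.829), where chance flags about 1 group in 20. Among the members, Nrros was lowest in BHLKO replicate 5 at 50.4 CPM, with the other BHLKO libraries at 57.1 to 58.2 CPM, and Tgfb2 was highest in Alb-Cre replicate 1 at 36.9 CPM, with the others of its group at 33.2 to 33.6 CPM. In the pathway lists, Fmod was highest in BHLKO replicate 5 at 30.4 CPM (others 18.9 to 19.6) and Lox lowest in BHLKO replicate 3 at 23.7 CPM (others 37.5 to 39.9). Nrp2 was lowest in Alb-Cre replicate 5 at 53.7 CPM (others 62.0 to 63.2), and Acvrl1 was highest in Alb-Cre replicate 2 at 562 CPM (others 405 to 423). Ube2b, whose profile is like that of Lrrc32, was highest in Alb-Cre replicate 5 at 55.4 CPM (others 33.1 to 36.1). Fbxo45, a neighbour of Nrros, was highest in Alb-Cre replicate 2 at 33.1 CPM (others 25.7 to 26.8), and Arntl was highest in Alb-Cre replicate 4 at 8.58 CPM (others 5.63 to 6.02).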

How the results depend on the processing

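All 10 members kept their direction under all 17 alternatives. Lrrc32 was called under 8 of the 9 alternatives that kept all libraries, with log2 0.60 and no call without robust estimation, and ranged from 0.49 to 0.77 when 1 library was left out. Nrros ranged from -0.61 to -0.44 when 1 library was left out. Members called numbered 2, against 1 without robust estimation and 0 (without BHLKO replicate 5) to 2 when 1 library was left out. Genes called numbered 306 of all tested, 692 with DESeq2, 240 with limma-voom and 131 to 520 when 1 library was left out, the highest without Alb-Cre replicate 5. Pathway calls numbered 9, 14 with DESeq2 and 5 to 16 when 1 library was left out. Among the 14 with DESeq2, Pdgfb was lower in BHLKO, at -0.45. Ltbp1, with as few as 60 counts in a library, had the widest SE. The scalings moved the median of all genes to -0.014 at most. The cause of these differences was not tested.

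Replicate numbers 2, 4 and 5 occur in both groups. Same-numbered libraries deviated together with correlations of only 0.037, -0.016 and 0.021, and not every library correlated best with its own number. No pairing was thus found, but these values cannot exclude one, and the labels do not say what the numbers mean. Under a replicate block Alb-Cre replicate 1 and BHLKO replicate 3 have no partner of the same number. The group difference then rested on the libraries numbered 2, 4 and 5 alone. With a replicate block, 160 genes and 1 member were called, Lrrc32 and not Nrros, which was at -0.57. Of the 9 pathway calls, Mmp2, Skil, Timp1 and Gdf15 were then not called, at log2 fold changes of 0.64, 0.80, 0.81 and 1.33, and Postn (-0.66, lower in BHLKO) and Bhlhe40 were called instead. T cell markers gave 0 calls with the block and 1 with limma-voom, against 4. DESeq2 called more of them, all lower in BHLKO (Cd3d, Cd3e, Cd4, Cd8a, Cd5, Cd6, Cd2 and Lck).

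Genes that were not called changed sign as follows. Under the replicate block Wnt11 was at -0.082, Rnf168 at -0.032 and Ubxn7 at -0.24, and with limma-voom Wdr53 was at -0.0037. With 1 library left out, log2 fold changes ranged from -0.017 to 0.273 for Wnt11, -0.069 to 0.137 for Wdr53, -0.33 to 0.199 for Ubxn7, -0.217 to 0.055 for Tctex1d2, -0.026 to 0.378 for Arntl and -0.013 to 0.147 for Hif1a. The cause was not tested.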
